A study of Homo sapiens with 8 samples.

Results

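The genes described here encode the subunits of oxidative phosphorylation, and the question was how those in the nuclear genome and those in the mitochondrial genome differed between dexamethasone-treated and untreated A549 cells. Nuclear members were taken by symbol (NDUFA, NDUFB, NDUFC, NDUFS and NDUFV subunits, SDHA to SDHD, UQCR genes, COX4 to COX8 genes and ATP5 genes), and mitochondrial members by their place on the mitochondrial chromosome. This gave 103 of the 19158 genes measured, 90 nuclear and 13 mitochondrial. Complex I had 39 nuclear and 7 mitochondrial members, complex II 4 and 0, complex III 9 and 1, complex IV 17 and 3, and complex V 21 and 2. The symbols also bring in genes that are not classical subunits, such as ATP5S (now DMAC2L), ATP5IF1 and the readthrough genes NDUFC2-KCTD14 and ATP5MF-PTCD1.

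A549 is an established epithelial cell line from a lung adenocarcinoma, wild type as labelled and kept in DMEM with serum. There were 2 groups of 4 wells, all with the same batch label: untreated cells, and cells given dexamethasone, a synthetic glucocorticoid, at 1 µM for 48 h. Replicates carry the numbers 1, 3, 4 and 5 in both groups, and nothing in the labels says that wells came from separate cultures, so p-values measure the spread between wells of 1 line. Levels are FPKM (fragments per kilobase of transcript scaled to the fragments of the library), a unit inferred from the values, and sets of 4 values are given in the order of replicates 1, 3, 4 and 5.

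Oxidative phosphorylation passes electrons from NADH and succinate through complexes I to IV to oxygen, pumps protons across the inner mitochondrial membrane, and lets complex V (ATP synthase) use the returning protons to make ATP. Its subunits are written in both genomes. The mitochondrial genome gives core membrane subunits, is transcribed by its own polymerase (POLRMT) as long polycistronic RNAs from both strands and is present in many copies, whereas each nuclear subunit gene has its own promoter and its protein is imported. Complex II is the exception, built from nuclear subunits alone.

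The mitochondrial members lie close together on a circle of 16569 bases (GRCh38 chromosome M), 12 on the plus strand and MT-ND6 alone on the minus strand. Their levels are partly tied by sequence, because some reading frames overlap, and the stretches below show both overlaps that matter for the values that follow. The capitals mark the bases shared by both genes, 46 for the complex V pair (positions 8527 to 8572) and 7 for the complex I pair (10760 to 10766). The stretches are plus-strand sequence of GRCh38.
MT-ATP8 and MT-ATP6, chrM:8518-8581: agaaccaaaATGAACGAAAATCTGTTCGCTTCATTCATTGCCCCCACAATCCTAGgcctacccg
MT-ND4L and MT-ND4, chrM:10748-10778: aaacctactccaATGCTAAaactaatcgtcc
The first capitals in each line are the start codon of the downstream frame, MT-ATP6 or MT-ND4, and the last are the stop codon of the upstream one. How reads in shared bases, or reads from nuclear copies of mitochondrial sequence, were counted is not given in the sources used here.

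The libraries held an estimated 24980000 to 28660000 fragments each, from the steps between low values, and 10555 to 11378 genes at 1 FPKM or more. Untreated replicate 5 was the library with 10555; the other untreated libraries had 11290 to 11378. FKBP5, an established glucocorticoid-induced gene, ran from 3.28 to 7.30 FPKM without and from 87.3 to 166 FPKM with dexamethasone, as the labels say. Of the epithelial markers, KRT8, KRT18, KRT7 and KRT19 were between 44 and 3608 FPKM in every library and EPCAM was below 1 FPKM throughout. Of the 6 epithelial markers tested, CDH1 was called higher with dexamethasone and KRT19 and CLDN4 lower (fold changes 1.31, -1.50 and -0.79 on the log2(FPKM + 1) scale). Among 9 markers of other cell types, PTPRC, CD3E and COL1A2 were at 0 in all libraries, and 6 of the 9 were under 1 FPKM throughout. The summed level of the 9 was 17.6 to 22.6 FPKM without dexamethasone and 12.1 to 17.3 FPKM with it. Of the 9, 3 were tested, with 0 called higher and 2 lower (median fold change -0.73). In bulk RNA, more transcripts per cell and more cells that carry them cannot be told apart.

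Mitochondrial transcripts had higher mean levels with dexamethasone, with a wide spread between wells, and no gene of the 13 passed the test. Nuclear transcripts had smaller differences with a narrower spread. Of the 81 nuclear members tested, 6 were called higher (7.41%), beside 12.1% of all tested genes, so this count is not read as a result about the members. The 13 mitochondrial genes summed to 21717, 11995, 13243 and 6517 FPKM in untreated wells, against 33157, 20037, 21395 and 8765 FPKM in treated wells. The groups overlapped, since dexamethasone replicate 5 lay below all untreated libraries but replicate 5. The 90 nuclear genes summed to 5462, 4985, 5448 and 6024 FPKM in the untreated wells and to 6200, 5998, 5964 and 6550 FPKM in the dexamethasone wells. These sums overlapped through untreated replicate 5, which was above dexamethasone replicates 3 and 4.

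As a share of all FPKM the nuclear members did not overlap: they made up 1.52%, 1.44%, 1.53% and 1.61% in untreated and 1.76%, 1.77%, 1.76% and 1.90% in dexamethasone libraries. Taken against nuclear-genome genes alone, which keeps the mitochondrial share out of the total, their mean share was 1.58% ± 0.0674 (SD, n = 4) without dexamethasone and 1.91% ± 0.0426 (SD, n = 4) with it. The separation holds for shares of summed FPKM. The scaling used for the test below divided untreated replicate 5 by 0.83 and the other libraries by 0.93 to 1.07. That raises the nuclear sum of untreated replicate 5 further against the dexamethasone sums it already overlapped. The mitochondrial share of all FPKM was 6.04%, 3.45%, 3.71% and 1.74% in untreated and 9.44%, 5.91%, 6.30% and 2.55% in dexamethasone libraries, with overlap. The ratio of the mitochondrial to the nuclear sum averaged 2.47 ± 1.18 (SD, n = 4) without dexamethasone and 3.4 ± 1.64 (SD, n = 4) with it. That ratio ran from 1.08 to 3.98 and from 1.34 to 5.35, so wells of 1 group differed by more than the group means did.

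**Figure D1:**
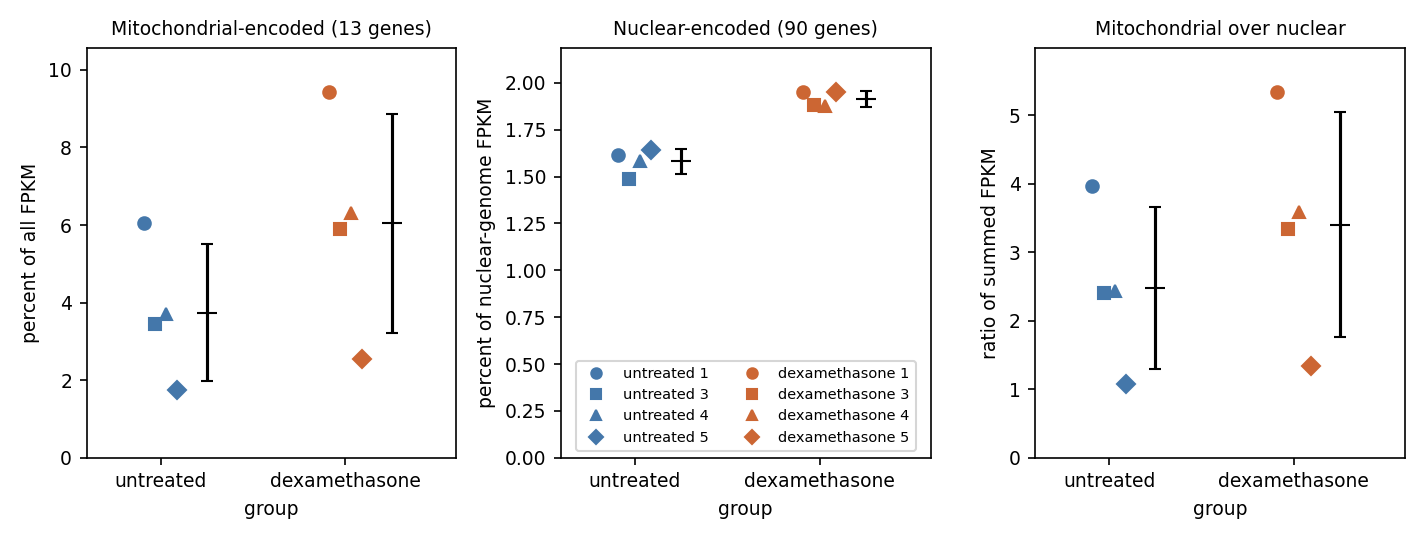
Share of FPKM held by the 13 mitochondrial-encoded members (left, percent of all FPKM), share held by the 90 nuclear-encoded members (middle, percent of the FPKM of nuclear-genome genes) and the ratio of their summed FPKM (right), in each of 8 libraries; the black marks are group means with SD. The nuclear share of every dexamethasone library lies above that of every untreated library, while the mitochondrial share and the ratio overlap between groups, with replicate 1 highest and replicate 5 lowest in both.

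Differences were tested gene by gene with limma on log2(FPKM + 1) after scaling between libraries, over 12161 genes with at least 0.5 FPKM in at least 4 libraries, and a gene was called at a Benjamini-Hochberg adjusted p under 0.05. Fold changes below are on that scale, dexamethasone minus untreated, and understate the change of low genes. Over all tested genes, 12.1% were called higher and 14.8% lower, and the median fold change was 0.003. Of the nuclear members 81 were tested: 6 were called higher (7.41%) and 0 lower, which is a smaller share than among all genes in this fit, though not under every scaling. At an unadjusted p under 0.05 there were 16. Their median fold change was 0.18, with 59 above and 22 below zero, in a range from -0.48 to 1.03. In deposited FPKM, every dexamethasone library was above every untreated library for 17 of the 81 (21.0%, against 12.3% of all tested genes), and below for 1, SDHC (19.2% of all tested genes).

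All 13 mitochondrial genes were tested, and limma called 0 of them, with 0 at an unadjusted p under 0.05. Their fold changes were all above zero, from 0.22 for MT-ND3 to 0.98 for MT-ND4L, with a median of 0.65, and for each of them the groups overlapped in FPKM. The median standard error of the fold change was 0.50 for the mitochondrial genes, 0.20 for the nuclear members and 0.17 for all tested genes. The coefficient of variation between untreated libraries had a median of 58.8% for mitochondrial genes, 19.2% for nuclear members and 21.6% for all tested genes. With dexamethasone these were 55.8%, 11.9% and 16.0%. The mitochondrial median exceeded the nuclear one by 0.47, a gap that moved with single libraries: it was 0.10 without untreated replicate 5, 0.22 without dexamethasone replicate 1, 0.93 without dexamethasone replicate 5, 0.75 without untreated replicate 1 and 0.53 when the pair of libraries numbered 5 was left out.

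**Figure D2:**
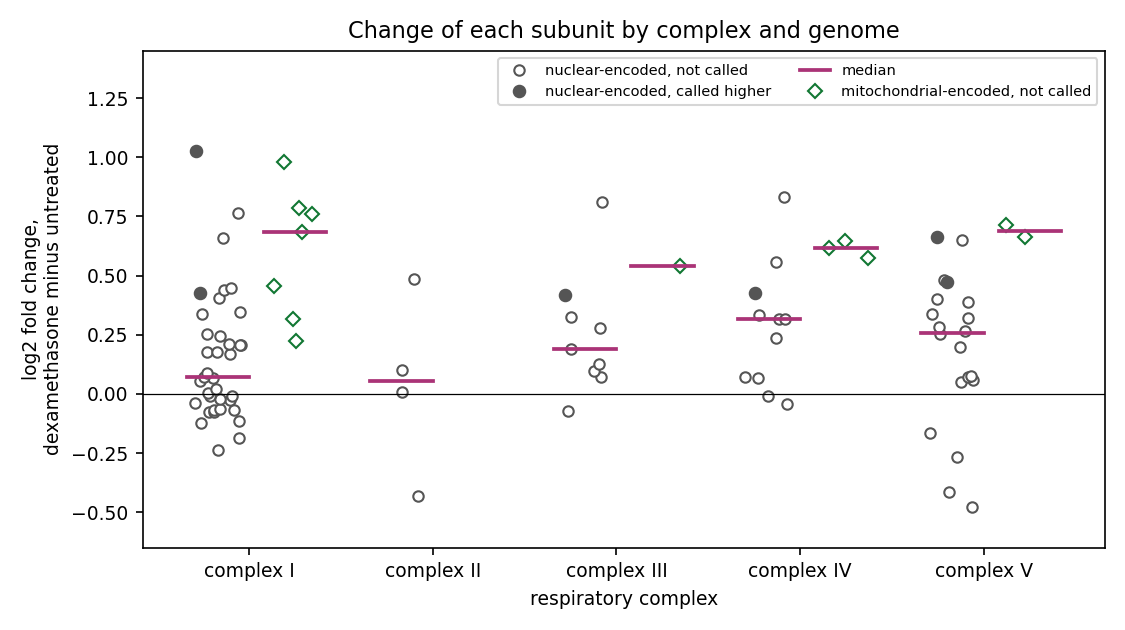
Log2 fold change (dexamethasone minus untreated, on log2(FPKM + 1)) of each tested member by respiratory complex; circles are nuclear-encoded and diamonds mitochondrial-encoded members, filled where limma called the gene, and bars are medians. The mitochondrial medians lie between 0.54 and 0.69 in the 4 complexes that have such subunits, above the nuclear medians of 0.07 to 0.32 in those complexes, and the 6 filled points are all nuclear. Members are placed by symbol, with NDUFA4 under complex I and ATP5S under complex V.

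By complex, the nuclear medians were 0.07 for complex I (2 of 37 tested called higher), 0.05 for complex II (0 of 4), 0.19 for complex III (1 of 9), 0.32 for complex IV (1 of 11) and 0.26 for complex V (2 of 20). The same fit called 12.1% of all tested genes higher, so these counts are not read as results about single complexes. Members were placed by symbol. The calls of complex I thus include NDUFA4, now known as a subunit of complex IV, and those of complex V include ATP5S, which is not a classical subunit. The mitochondrial medians were 0.69 for complex I, 0.54 for complex III, 0.61 for complex IV and 0.69 for complex V. Before scaling, summed FPKM of nuclear members did not overlap between groups in complex III (523 to 592 in untreated, 621 to 668 in dexamethasone libraries) and complex V (1509 to 1743 and 1802 to 1922). It overlapped in complexes I, II and IV, where the means were 1713 and 1829, 137 and 139, and 1449 and 1695 FPKM. Complex II was the set with the closest means. The scaling used for the test divided untreated replicate 5 by 0.83, which raises its sums for complexes III and V (592 and 1652 FPKM before it). On that scale the groups overlap in these complexes as well. In every library an average mitochondrial gene was above an average nuclear gene of the same complex in FPKM. The mean per gene was 15.2 to 69.8 times as high in complex IV, 3.77 to 25.2 times in complex I, 4.34 to 19.1 times in complex III and 2.29 to 15.5 times in complex V.

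The 3 mitochondrial subunits of complex IV, which form its catalytic core, were the most abundant members of all. MT-CO1, which holds the site of oxygen reduction, was at 4981, 3115, 3469 and 1499 FPKM without dexamethasone and 8367, 5703, 5034 and 2098 FPKM with it. Its fold change was 0.65 (SE 0.41), and the adjusted p from limma was 0.27. Dexamethasone replicates 1, 3 and 4 were above all untreated libraries, while dexamethasone replicate 5 was below untreated replicates 1, 3 and 4. Without both libraries numbered 5, MT-CO1 was called, with a fold change of 0.77 and a limma adjusted p of 0.039. MT-CO2, which takes electrons from cytochrome c, was at 3740, 2046, 2119 and 1325 FPKM in untreated wells, against 5497, 3377, 3896 and 1697 FPKM in treated wells. It had the smallest p of the 13 (0.12 unadjusted, 0.23 adjusted, limma; fold change 0.61, SE 0.36). MT-CO3 was at 4816, 2778, 3159 and 1747 FPKM in the untreated wells and 6881, 4742, 4987 and 2318 FPKM in the dexamethasone wells.

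Complex I takes its membrane arm from the mitochondrial genome. MT-ND1, at the joint between the arms, was at 1183, 557, 636 and 221 FPKM without dexamethasone and 1659, 789, 899 and 290 FPKM with it. MT-ND2, one of the proton-pumping subunits, was at 1025, 535, 616 and 262 FPKM in untreated wells, against 1346, 707, 803 and 290 FPKM in treated wells. MT-ND4, another pumping subunit, was at 1564, 738, 842 and 330 FPKM in the untreated wells and 2704, 1311, 1548 and 536 FPKM in the dexamethasone wells. Each shows the same order of wells in both groups, with replicate 1 highest and replicate 5 lowest. MT-ND5, the distal pumping subunit, was at 603, 303, 343 and 115 FPKM without dexamethasone and 1054, 517, 566 and 201 FPKM with it. MT-ND3 was at 636, 363, 337 and 317 FPKM in untreated wells, against 625, 388, 551 and 358 FPKM in treated wells. For MT-ND3 the group means, 413 ± 149 and 481 ± 128 FPKM (SD, n = 4), were the closest of the 13 in proportion, and its fold change of 0.22 (SE 0.25) went to -0.02 once the trend of each library on GC content was removed.

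MT-ND4L, which shares its transcript and the 7 printed bases with MT-ND4, was at 371, 119, 129 and 41.9 FPKM in the untreated wells and 686, 198, 358 and 78.5 FPKM in the dexamethasone wells. MT-ND4 was 3.94 to 7.89 times as high as MT-ND4L per unit length, depending on the library. MT-ND6, the member on the other strand, was lowest in all 8 libraries, at 87.1, 48.4, 45 and 11.8 FPKM without dexamethasone and 126, 75.0, 66.4 and 26.2 FPKM with it. Whether the counting used strand is not given in the sources used here, so its reads and those of the opposite strand cannot be told apart.

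MT-CYB, the haem-carrying subunit of complex III, was at 912, 534, 585 and 285 FPKM in untreated wells, against 1419, 821, 950 and 341 FPKM in treated wells. Of the complex V subunits, MT-ATP6, which lines the proton path, was at 363, 163, 198 and 68.8 FPKM in the untreated wells and 614, 260, 361 and 106 FPKM in the dexamethasone wells. MT-ATP8, a small subunit beside it, was at 1436, 696, 765 and 292 FPKM without dexamethasone and 2178, 1151, 1374 and 425 FPKM with it. Although both frames lie on 1 transcript, MT-ATP8 stood 3.55 to 4.42 times as high per unit length as MT-ATP6, with overlap between groups. The spread between wells was common to the set: replicate 1 was the highest and replicate 5 the lowest library of its group for 13 of 13 mitochondrial genes in both groups. Among the 81 tested nuclear members, replicate 5 was the lowest untreated library for 27 of them and the highest for 40, and the lowest dexamethasone library for 24 and the highest for 37.

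**Figure D3:**
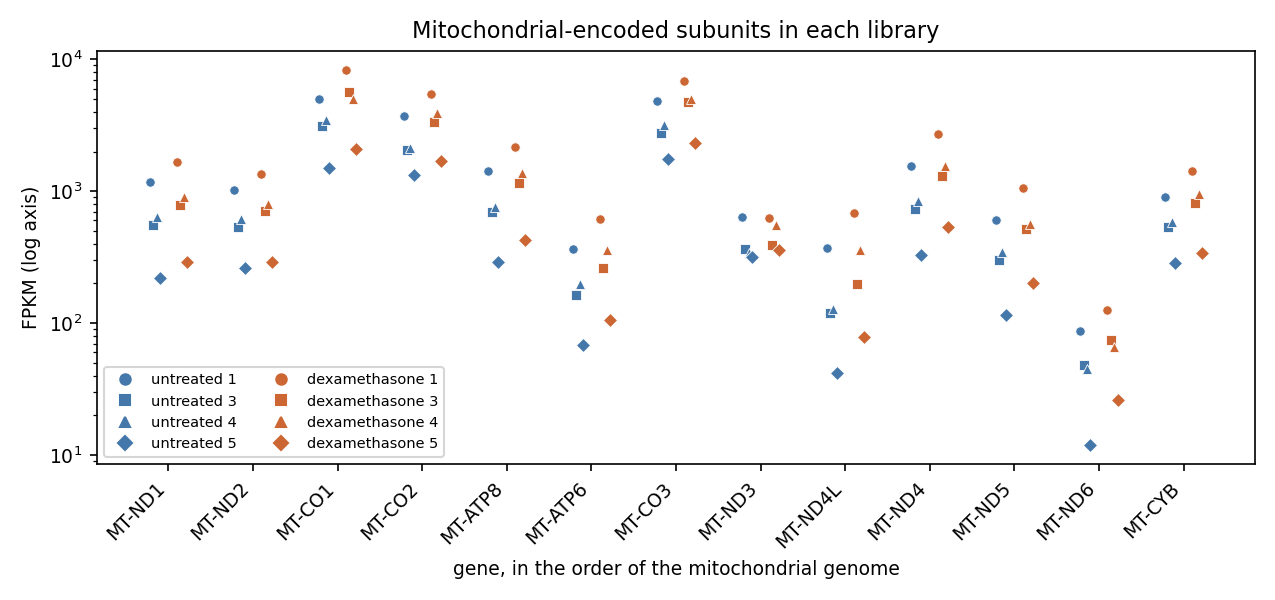
FPKM (log axis) of the 13 mitochondrial-encoded subunits in the order of the mitochondrial genome, for 4 untreated and 4 dexamethasone libraries; each point is 1 library and its shape gives the replicate number. In both groups the circle (replicate 1) is highest and the diamond (replicate 5) lowest for every gene, from MT-CO1 (1499 to 8367 FPKM) to MT-ND6 (11.8 to 126 FPKM).

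The order of the mitochondrial genes hardly moved. MT-CO1, MT-CO3, MT-CO2 and MT-ND4 took the first 4 places in all 8 libraries and MT-ND6 the last, with MT-CO3 ahead of MT-CO1 in both libraries numbered 5. MT-CO1 and MT-CO3 did not differ beyond their spread (MT-CO3 over MT-CO1 from 0.82 to 1.17). MT-ND3 moved most in rank, from place 5 in untreated replicate 5 to place 11 in dexamethasone replicate 1. To see the genes apart from the level they share, each was expressed as log2 relative to the mean of all 13 in its library, as a description without a test. On that scale MT-ND2 was at 0.04, 0.08, 0.15 and 0.15 in untreated and at -0.16, -0.16, -0.21 and -0.24 in dexamethasone libraries, a difference of -0.30 without overlap. MT-ND4 was at 0.65, 0.54, 0.60 and 0.49 in untreated and at 0.84, 0.73, 0.74 and 0.65 in dexamethasone libraries, a difference of 0.17 without overlap. For the other 11 genes the groups overlapped on this scale, which has no share over all genes to set beside it. In FPKM, 12.3% of all tested genes had every dexamethasone library above every untreated one, and 19.2% below. MT-ND2 and MT-ND4 were named because they did not overlap, so their count is not read as a result about the set. The ratio of MT-ND4 to MT-ND2 was accordingly 1.26 to 1.53 in untreated and 1.85 to 2.01 in dexamethasone libraries, whatever the level of the well. In these wells the genes changed unequally, which was not tested, and the ratios do not say that any of them stayed the same.

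Of the 6 nuclear members that rose, 2 were placed in complex V by symbol, the subunit ATP5MD and ATP5S, which is not a classical subunit. ATP5MD (ENSG00000173915, chromosome 10, 103299773 to 103396492, minus strand; now ATP5MK), a small membrane subunit known for its part in dimers of ATP synthase, was at 134, 137, 148 and 79.0 FPKM in untreated wells, against 231, 199, 200 and 155 FPKM in treated wells. Every dexamethasone library was above every untreated one, and the fold change was 0.66 (SE 0.16, limma adjusted p = 0.014). ATP5MD was called under all 20 other settings tried, with fold changes from 0.57 to 0.78. ATP5S (ENSG00000125375, chromosome 14, 50312326 to 50335558, plus strand), a coupling factor of the ATP synthase family, was low: 1.99, 2.38, 1.84 and 1.56 FPKM in the untreated wells and 2.83, 3.85, 3.10 and 2.65 FPKM in the dexamethasone wells. The groups did not overlap (fold change 0.47, SE 0.12, limma adjusted p = 0.017), and the call was lost in 1 of 20 settings, without dexamethasone replicate 3 (adjusted p = 0.054). The locus given for ATP5MD runs across PCGF6 on the same strand and TAF5 on the opposite one, and that of ATP5S across CDKL1 on the opposite strand, so reads shared with those genes were not told apart.

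UQCRC2 (ENSG00000140740, chromosome 16, 21952660 to 21983660, plus strand), a core subunit of complex III, was at 48.0, 50.0, 50.4 and 35.5 FPKM without dexamethasone and 66.8, 61.9, 63.2 and 55.7 FPKM with it. The groups did not overlap (fold change 0.42, SE 0.11, limma adjusted p = 0.018). COX7C (ENSG00000127184, chromosome 5, 86617904 to 86620962, plus strand), a small nuclear subunit of complex IV, was at 144, 158, 152 and 132 FPKM in untreated wells, against 215, 188, 228 and 169 FPKM in treated wells. It did not overlap either (fold change 0.43, SE 0.13, limma adjusted p = 0.036).

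NDUFA4 (ENSG00000189043, chromosome 7, 10931951 to 10940256, minus strand), named for complex I and now known as a subunit of complex IV, was at 56.5, 49.4, 56.5 and 42.9 FPKM in the untreated wells and 77.7, 70.3, 65.9 and 65 FPKM in the dexamethasone wells. There was no overlap (fold change 0.43, SE 0.12, limma adjusted p = 0.024). NDUFA5 (ENSG00000128609, chromosome 7, 123536997 to 123558255, minus strand), an accessory subunit of the matrix arm of complex I, was at 4.51, 7.28, 6.38 and 1.82 FPKM without dexamethasone and 17.3, 8.92, 10.5 and 6.89 FPKM with it. It had the highest fold change of the nuclear members, 1.03 (SE 0.31, limma adjusted p = 0.035), although dexamethasone replicate 5 was below untreated replicate 3. Over the 20 other settings, UQCRC2 kept its call in 15, NDUFA4 and NDUFA5 in 13 each and COX7C in 12. With GC trends removed, UQCRC2, COX7C and NDUFA4 were no longer called and ATP5MD, ATP5S and NDUFA5 were.

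The count of 6 depended on single libraries. It was 19 without untreated replicate 5 and 10 without dexamethasone replicate 5, all higher, and 28 without both, also all higher. As shares of the members tested these are 23.5%, 12.2% and 34.6%, beside 15.1%, 13.3% and 22.2% of all tested genes called higher in the same fits. Without dexamethasone replicate 1, 3 or 4 it was 3, 2 and 3, with 2, 1 and 2 of them higher; the member called lower was NDUFA4L2 or, without dexamethasone replicate 3, ATP5MF. In those fits 8.86%, 8.66% and 8.55% of all tested genes were called higher. The 6 genes were all among the 19 and among the 28.

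Most core subunits had differences within their spread. In complex I, NDUFS1, which carries iron-sulfur clusters, was at 10.8, 12.7, 12.9 and 8.58 FPKM in untreated wells, against 16.5, 14.9, 15.3 and 11.8 FPKM in treated wells, overlapping only through dexamethasone replicate 5 (fold change 0.35, SE 0.12, limma adjusted p = 0.057). NDUFV1, where NADH binds, had means of 43.8 ± 9.51 and 47.2 ± 13.8 FPKM (SD, n = 4). The most abundant nuclear subunit of complex I was NDUFS5, at 115 ± 14.8 and 134 ± 13.9 FPKM (SD, n = 4). NDUFB5 and NDUFA12, accessory subunits with fold changes of 0.76 and 0.66, had limma adjusted p-values of 0.055 and 0.074. NDUFB5 stood out through dexamethasone replicate 4 (41.7 FPKM, others 15.5 to 21.9) and NDUFA12 through dexamethasone replicate 1 (54.1 FPKM, others 21.4 to 27.2). NDUFC2 and its readthrough NDUFC2-KCTD14 have to be read together: untreated replicate 1 had 9.5 FPKM on NDUFC2 and 20.05 FPKM on the readthrough, yet their sum was 28.4 to 33.6 FPKM in all 8 libraries.

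The 4 genes of complex II, which oxidises succinate, held the only member whose dexamethasone values were all below the untreated ones among those tested, in FPKM before scaling. After the scaling used for the test, the groups of this gene overlapped. SDHC, a membrane anchor, was at 23.3, 17.8, 19.8 and 29.6 FPKM in the untreated wells and 15.8, 17.8, 15.3 and 16.8 FPKM in the dexamethasone wells, with untreated and dexamethasone replicates 3 almost level (17.83 and 17.79 FPKM). It was not called (fold change -0.43, SE 0.22, unadjusted p = 0.076). The other anchor, SDHD, had the opposite sign, with a fold change of 0.49 and an SE of 0.46, at 11.7, 7.64, 2.25 and 8.30 FPKM without dexamethasone and 17.2, 5.05, 12.5 and 8.01 FPKM with it. SDHA, the flavoprotein that oxidises succinate, had means of 59.6 ± 7.92 and 64.4 ± 4.94 FPKM, and SDHB, its iron-sulfur partner, 46.9 ± 3.58 and 47.6 ± 1.6 FPKM (SD, n = 4).

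In complex III, UQCRFS1, the Rieske iron-sulfur subunit, was among the steadiest members, at 71.3 ± 2.7 FPKM in untreated wells, against 68.4 ± 1.1 FPKM in treated wells (SD, n = 4). UQCRC1, the core partner of UQCRC2, was at 72.2, 72.6, 73.8 and 110 FPKM in the untreated wells and 77.2, 89.0, 76.2 and 104 FPKM in the dexamethasone wells. Untreated replicate 5 was thus the highest library for UQCRC1 and the lowest for UQCRC2. UQCRB, near the quinone site, was at 13.8, 14.9, 12.7 and 4.11 FPKM without dexamethasone and 25.4, 18.3, 22.3 and 12.4 FPKM with it (fold change 0.81, SE 0.30, limma adjusted p = 0.078). UQCRH and its near-identical copy UQCRHL (0.71 to 1.26 FPKM) can share reads, and the level of the copy is uncertain.

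In complex IV the isoforms described for most tissues carried nearly all of the signal. COX4I1 was at 120, 118, 117 and 151 FPKM in untreated wells, against 161, 145, 142 and 188 FPKM in treated wells, overlapping through untreated replicate 5 (fold change 0.32, SE 0.20), while COX4I2, the isoform linked to low oxygen and to lung, was listed at 0 in all 8. COX6A1 was at 242, 219, 234 and 292 FPKM in the untreated wells and 297, 310, 289 and 341 FPKM in the dexamethasone wells, overlapping through the same library, with COX6A2, its counterpart in heart and skeletal muscle, listed at 0. COX6B1 and COX8A, with 198 to 417 and 248 to 386 FPKM, stood beside COX6B2 (0 to 0.48 FPKM) and COX8C (0 to 0.05 FPKM), which are known from testis. COX7A2 had means of 52.1 ± 6.42 and 62.1 ± 7.20 FPKM and COX7A2L, which links complexes III and IV, 22.7 ± 5.31 and 23.7 ± 2.04 FPKM (SD, n = 4), and COX7A1 had at most 0.19 FPKM. COX5A, a matrix-side subunit, was at 87.1 ± 7.56 and 92.0 ± 2.65 FPKM (SD, n = 4). COX6C, a small membrane subunit with 59.6, 57.8, 76.6 and 22.3 FPKM without dexamethasone and 127, 86.8, 103 and 56.2 FPKM with it, had a fold change of 0.83 (SE 0.31, limma adjusted p = 0.076).

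NDUFA4L2, the low-oxygen relative of NDUFA4, was too low to be tested: 0.49, 0.57, 0.55 and 0.71 FPKM in untreated wells, against 0.36, 0.11, 0.38 and 0.14 FPKM in treated wells. Its groups did not overlap. It was called lower where the filter was lifted and in 3 of the fits that left out 1 library. In all, 9 nuclear members did not pass the filter: ATP5MGL, COX4I2, COX6A2, COX6B2, COX7A1, COX7B2, COX8C, NDUFA4L2 and NDUFC2-KCTD14.

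In complex V the catalytic subunit ATP5F1B was the most abundant nuclear member, at 325, 325, 381 and 399 FPKM in the untreated wells and 403, 415, 453 and 461 FPKM in the dexamethasone wells. The groups did not overlap, and the fold change was 0.27 (SE 0.18), not called. Its partner ATP5F1A was at 59.9, 58.6, 165 and 56.4 FPKM without dexamethasone and 66.2, 68.5, 72.5 and 65.6 FPKM with it. Its fold change was -0.16, or 0.18 without untreated replicate 4, and neither was called. ATP5PD, of the peripheral stalk, was at 179, 164, 188 and 174 FPKM in untreated wells, against 236, 231, 221 and 244 FPKM in treated wells (fold change 0.39, SE 0.15, limma adjusted p = 0.076). ATP5MC3, a gene for the rotor ring, had means of 34.9 ± 1.78 and 50.2 ± 9.22 FPKM without overlap, while ATP5MC2, another ring gene, had 150 ± 44.9 and 123 ± 9.22 FPKM (SD, n = 4). ATP5IF1, the inhibitor of ATP hydrolysis by the enzyme, was level at 9.37 ± 1.33 and 9.96 ± 0.247 FPKM (SD, n = 4; fold change 0.08, SE 0.11). ATP5MF and its readthrough ATP5MF-PTCD1 traded values between libraries (12.9 to 46.6 and 15.9 to 69.2 FPKM) while their sum was 58.6 to 87.0 FPKM, so neither fold change is printed as a result for the gene alone.

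Fold changes ran with base composition. Over the 81 tested nuclear members, the Spearman correlation of fold change with the GC content of the longest transcript was -0.56, and over 12130 tested genes with a GC value it was -0.44; both are across genes, which share the 8 libraries and are not independent. The 27 nuclear members of lowest GC (34.1% to 43.5%) had a median fold change of 0.40, the 27 in the middle 0.19 and the 27 of highest GC 0.05. All tested genes in the same GC ranges had medians of 0.26, 0.02 and -0.21. The nuclear median was above that of all genes in each range. With the trend of each library on GC removed, the medians became 0.13, 0.17 and 0.19, and the median of all nuclear members was 0.17. The nuclear medians by complex then became 0.15, 0.03, 0.25, 0.14 and 0.16 for complexes I to V, so the lead of complexes IV and V was not kept, and 12 nuclear members were called higher (14.8%) and 0 lower, beside 18.1% and 18.7% of all tested genes called higher and lower in that fit. The mitochondrial median became 0.54, with 0 genes called. The part of base composition in the fold changes was not tested beyond these values.

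**Figure D4:**
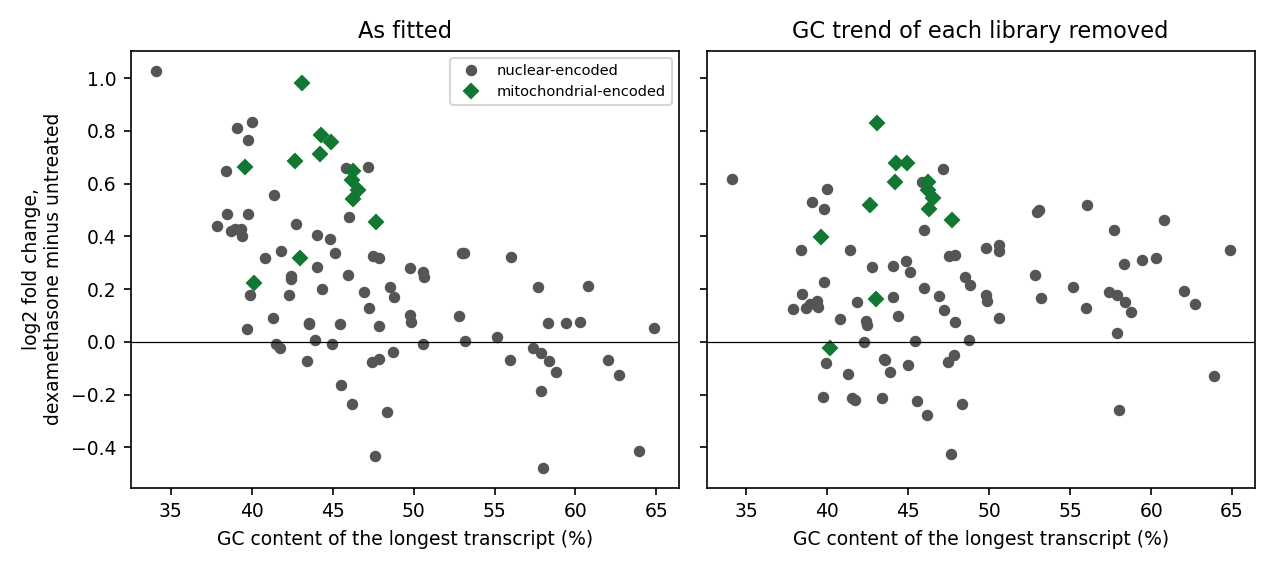
Log2 fold change (dexamethasone minus untreated) of each tested member against the GC content of its longest transcript in percent, as fitted (left) and with the GC trend of each library removed (right); circles are nuclear-encoded and diamonds mitochondrial-encoded. On the left the nuclear points fall with GC (Spearman -0.56), on the right they do not (0.13), and most diamonds stay in the upper part of both panels.

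The promoters of nuclear members are known for sites of NRF1 (nuclear respiratory factor 1), of the ETS family factor GABP and of YY1. In the RefSeq windows from 250 bases before to 50 bases after the start (GRCh38.p14), 70 of the 90 nuclear members were found by symbol. Motifs were searched on both strands. The NRF1 letters GCATGCGC were in 13 of the 70 (18.6%), in 3.27% of all 27305 promoters and in 4.26% of the 15842 promoters of protein-coding genes. The ETS letters CCGGAAG were in 20 (28.6%, against 10.7% of all and 14.2% of protein-coding promoters). The YY1 letters ATGGCGGC were in 12 (17.1%, against 3.21% and 4.49%). A glucocorticoid receptor palindrome, AGAACA and TGTTCT set 3 bases apart, was in 0 of the 70 and in 1 of all promoters, which says only that these exact letters are not in this window. Among the called members 4 had a window, with an NRF1 match in 0 and an ETS match in 1, ATP5MD. The window of NDUFA5 (chromosome 7, 123601602 to 123601901) lies outside the locus given for it, which ends at 123558255. It need not be the promoter of the transcript measured.

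There were 6 windows with both an NRF1 and an ETS match, and the 3 printed here have both within the 150 bases before the start. They are shown as examples of windows with both motifs. Each is on the strand of its gene and ends at the base before the start, and the capitals mark the NRF1 match (overlapping matches run together) and the ETS match, on either strand. Another ETS match of COX5B begins in the last printed bases and runs past the start, and is left in lower case.
SDHD, chr11:112086723-112086872, plus strand: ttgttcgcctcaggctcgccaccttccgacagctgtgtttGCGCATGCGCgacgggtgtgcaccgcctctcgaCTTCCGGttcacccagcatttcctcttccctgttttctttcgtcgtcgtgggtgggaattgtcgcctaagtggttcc
COX5B, chr2:97645912-97646061, plus strand: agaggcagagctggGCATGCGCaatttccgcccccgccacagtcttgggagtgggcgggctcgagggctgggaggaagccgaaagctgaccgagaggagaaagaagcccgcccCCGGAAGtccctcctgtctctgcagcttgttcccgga
ATP5PF, chr21:25735055-25735204, minus strand: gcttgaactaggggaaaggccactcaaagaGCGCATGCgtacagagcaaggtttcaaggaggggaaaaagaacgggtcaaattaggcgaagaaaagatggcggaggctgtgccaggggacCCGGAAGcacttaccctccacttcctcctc
The fold changes of these genes were 0.49, 0.33 and 0.34, none of them called. Their starts lay 100, 22 and 619 bases from the gene starts given with the deposited values. The tested members with an NRF1 match (13) had a median fold change of 0.25 and those without (52) 0.08, a description with no test. For the ETS letters the medians were 0.30 with a match (20) and 0.07 without (45). For the YY1 letters the order was the other way, 0.01 with a match (12) and 0.18 without (53). A match is letters in a window, not a bound site.

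Some of the factors known to act on these promoters, and their coactivators, differed between the groups. NRF1 fell: it was at 8.5, 8.31, 8.26 and 8.23 FPKM in the untreated wells and 5.22, 4.21, 4.54 and 5.03 FPKM in the dexamethasone wells, without overlap (fold change -0.71, SE 0.13, limma adjusted p = 0.0033). PPRC1, a coactivator of the PGC-1 family, fell from 25.5, 25.8, 24.5 and 25.8 FPKM to 14.7, 17.5, 14.8 and 16.7 FPKM (fold change -0.66, SE 0.14, limma adjusted p = 0.0068). HCFC1, a chromatin cofactor, fell from 38.4, 41.6, 37.6 and 30.1 FPKM to 22.8, 19.3, 23.7 and 29.1 FPKM (fold change -0.63, SE 0.15, limma adjusted p = 0.014). In these genes every dexamethasone library was below every untreated one, for HCFC1 by a small margin in the libraries numbered 5, and with GC trends removed HCFC1 was no longer called.

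PPARGC1B, another PGC-1 coactivator, rose from 1.96, 2.01, 2.43 and 1.00 FPKM to 6.29, 5.29, 5.38 and 4.13 FPKM, without overlap (fold change 1.15, SE 0.15, limma adjusted p = 4.2e-04). PPARGC1A was at 0.006 to 0.024 FPKM without dexamethasone and 0.061 to 0.12 FPKM with it, too low to be tested. The list of 12 regulators thus had 9 tested, with 1 called higher and 3 lower and a median of -0.15. Among all tested genes 12.1% were called higher and 14.8% lower. GABPA, the DNA-binding part of GABP, was not called (fold change 0.44, SE 0.24), nor were GABPB1, ESRRA, YY1 and MYC. With GC trends removed GABPB1 was called lower (fold change -0.46, limma adjusted p = 0.011).

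Of 19 genes for transcription and replication of mitochondrial DNA, 0 were called higher and 2 lower, with a median of 0.05. Among all tested genes 12.1% were called higher and 14.8% lower. POLRMT, the mitochondrial RNA polymerase, fell from 27.3, 28.0, 27.5 and 39.3 FPKM to 16.4, 15.5, 15.6 and 20.9 FPKM, without overlap (fold change -0.81, SE 0.22, limma adjusted p = 0.023). The call was lost without dexamethasone replicate 1, 3 or 4 (adjusted p up to 0.079). MGME1, a mitochondrial exonuclease, fell from 15.2, 11.5, 16.9 and 9.72 FPKM to 8.37, 10.2, 6.96 and 8.85 FPKM with some overlap (fold change -0.57, SE 0.17, limma adjusted p = 0.030), a call lost in 6 of 20 settings. TFAM, which packages mitochondrial DNA and starts its transcription, was at 6.58, 12.7, 11.6 and 4.42 FPKM in untreated wells, against 11.2, 6.87, 7.89 and 5.99 FPKM in treated wells (fold change -0.07, SE 0.25, limma adjusted p = 0.86). With GC trends removed TFAM was called lower (fold change -0.43, limma adjusted p = 0.043), and the list had 1 higher and 4 lower, in a fit that called 18.1% of all tested genes higher and 18.7% lower. The polymerase transcript was thus lower in each dexamethasone well. The summed mitochondrial subunit transcripts had a higher mean, with overlap between groups and no gene called. A link between these values was not tested.

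Of 19 genes for processing and stability of mitochondrial RNA, 1 was called higher and 0 lower, with a median of 0.15. Among all tested genes 12.1% were called higher and 14.8% lower. FASTKD5, known for maturation of mitochondrial transcripts that lack a flanking tRNA, rose from 18.1, 18.2, 18.4 and 12.1 FPKM to 25.5, 27.1, 26.7 and 23.0 FPKM, without overlap (fold change 0.59, SE 0.11, limma adjusted p = 0.0036), and was called in all 20 other settings. LRPPRC, which stabilises mitochondrial mRNAs, was at 31.1, 40.8, 43.5 and 14.4 FPKM in the untreated wells and 53.4, 42.5, 50.4 and 32.0 FPKM in the dexamethasone wells (fold change 0.52, SE 0.26, limma adjusted p = 0.16).

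**Figure D5:**
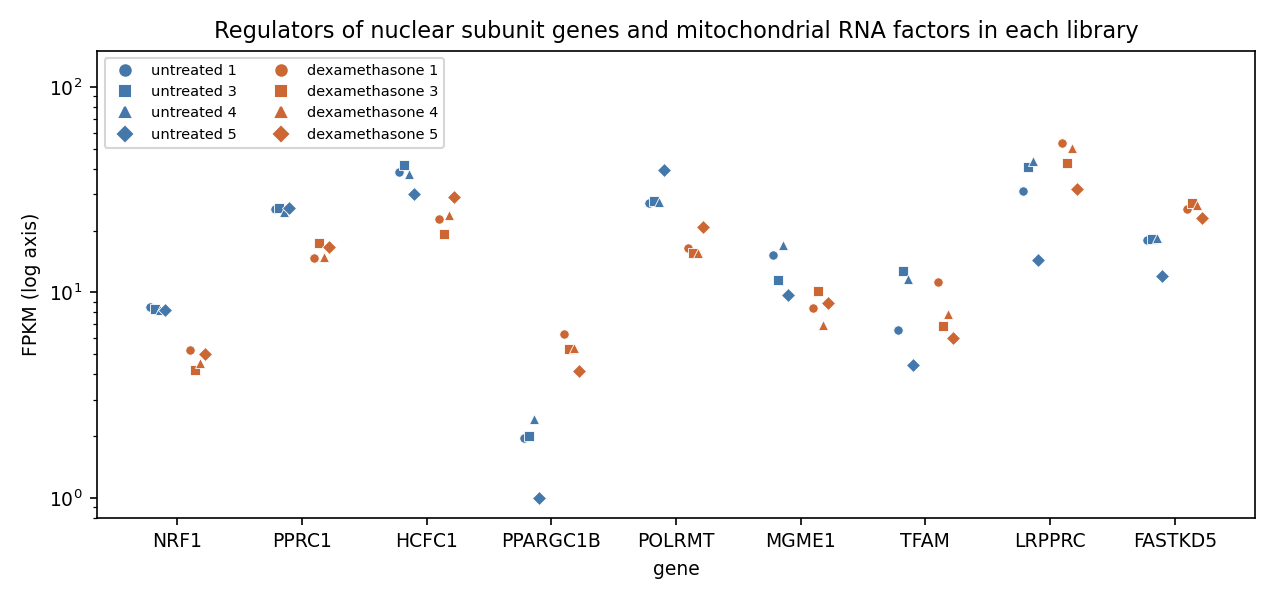
FPKM (log axis) of 4 regulators of nuclear subunit genes and 5 factors for mitochondrial DNA and RNA in 4 untreated and 4 dexamethasone libraries; each point is 1 library and its shape gives the replicate number. NRF1, PPRC1, HCFC1 and POLRMT lie lower and PPARGC1B and FASTKD5 higher in every dexamethasone library than in every untreated one, while MGME1, TFAM and LRPPRC overlap.

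Few of the genes that assemble the complexes passed the test, which called 12.1% of all tested genes higher and 14.8% lower. Of 19 assembly factors of complex I, 0 were called (3 at an unadjusted p under 0.05, limma), with a median of 0.04, and of 10 for complexes II and III, 0 were called (2 at an unadjusted p under 0.05, limma), with a median of 0.003. Of 24 for complex IV, 2 were called higher: COX20, which helps to mature MT-CO2 (fold change 0.58, limma adjusted p = 0.023), and COA5 (0.48, limma adjusted p = 0.037), a call lost in 8 of 20 settings. COX20 was not called with GC trends removed (fold change 0.26). Of 6 for complex V, 1 was called, the member ATP5S itself under its current symbol. No difference between these lists and the subunits was tested.

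Of 17 genes for electron carriers and ubiquinone synthesis, 1 rose, COQ8B, an atypical kinase needed for ubiquinone synthesis, from 28.6 ± 4.76 to 46.6 ± 5.27 FPKM (SD, n = 4; fold change 0.68, limma adjusted p = 0.034). Its call was lost in 6 of 20 settings, and the median of the list was -0.01. Of 14 citrate cycle genes 2 rose (14.3%) and 0 fell, with a median of 0.23. The same fit called 12.1% of all tested genes higher and 14.8% lower, so these counts are not read as results about the lists. SUCLG2, the GTP-forming subunit of succinyl-CoA ligase, rose from 16.2, 18.2, 18.7 and 9.07 FPKM to 29.4, 28.7, 26.1 and 20.6 FPKM (fold change 0.74, SE 0.16, limma adjusted p = 0.0088). DLD, the dihydrolipoamide dehydrogenase, rose from 16.8 ± 5.95 to 28.8 ± 7.27 FPKM (SD, n = 4; fold change 0.77, limma adjusted p = 0.031), with dexamethasone replicate 5 (18.3 FPKM) below 2 untreated libraries and the call lost in 6 of 20 settings. With GC trends removed, where 18.1% of all tested genes were called higher and 18.7% lower, 5 of the 14 citrate cycle genes were called higher and 1 lower, and of the assembly factors of complex IV 4 higher and 1 lower.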

How the data were processed

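Total RNA of 8 wells was depleted of ribosomal RNA and sequenced as paired ends, per the labels' protocols. Per the series' design text, the authors trimmed with Cutadapt 3.4, aligned to GRCh38 with STAR 2.7.9a, counted with featureCounts (Subread 2.0.3) and tested with DESeq2 1.32.0. The deposited values are not whole numbers and were read as FPKM from their sums (338989 to 373855 per library), since no source names the unit. Of low values, 42.6% to 48.3% were within 0.1 of a whole fragment, so counts were not recovered. Chance gives 20% at 1 fixed depth, but the depth of each library was chosen to make this share highest. The share that chance gives here is therefore above 20%, by an amount that was not worked out.

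Libraries were scaled with trimmed means of M values (trims of 0.3 and 0.05). The limma package 3.58.1 (R 4.3.3) compared log2(FPKM + 1) between groups of 4 (trend, robust, two-sided, group as the only term), adjusted by Benjamini-Hochberg over 12161 genes; simulated data served to check it. GENCODE v44 gave GC content, strand and overlaps for all 103 members, and coordinates are those of the files. The members and gene lists were chosen with earlier results of these data known. Named genes are the mitochondrial members, called members, listed core subunits and isoforms, the highest and lowest member of each complex, and 2 genes per list; 1 gene that this rule selects is not reported here. NDUFB5, NDUFA12, NDUFC2, SDHC, SDHD, UQCRB, COX6C, ATP5PD, ATP5MC3, ATP5MC2, PPRC1, HCFC1, GABPA, the promoters shown and the ratios between mitochondrial genes were added after their values were seen. Alternatives changed the pseudocount, filter, scaling, moderation, GC trend, replicate block and libraries.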

Additional observations from a re-analysis of the deposited data

Results flagged for a closer look

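Each group of 4 libraries was checked for a library far from the rest of its group (by Dixon's gap over range). Of 121 groups, 10 had such a library, where chance gives about 1 in 20 groups, or 6.05, and 6 of the 10 were untreated replicate 5. In untreated replicate 5, COX4I1 (151 FPKM), COX8A (386 FPKM), UQCRC1 (110 FPKM) and POLRMT (39.3 FPKM) were above the other untreated libraries, which had at most 120, 264, 73.8 and 28.0 FPKM. UQCRC2 (35.5 FPKM) and FASTKD5 (12.1 FPKM) were below them there, where the others had at least 48.0 and 18.1 FPKM. POLRMT was also high in dexamethasone replicate 5 (20.9 FPKM, others 15.5 to 16.4), and TMEM242, an assembly factor of complex V, was low in it (1.69 FPKM, others 2.45 to 2.58). ATP5F1A in untreated replicate 4 was at 165 FPKM, where the others had 56.4 to 59.9. MT-ND3 in untreated replicate 1 was at 636 FPKM, where the others had 317 to 363.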

How the results depend on the processing

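No result changed sign past the threshold under the 20 alternatives, and the medians stayed above zero for the nuclear (0.07 to 0.29) and the mitochondrial members (0.39 to 1.00). The number of nuclear members called, 6 as reported, was 12 without scaling, 17 with equal nuclear-genome totals, 12 with GC trends removed and 28 without both libraries numbered 5, and 2 to 19 when 1 library was left out. The shares of nuclear members and of all tested genes called higher were 7.41% and 12.1% as reported. They were 14.8% and 10.4% without scaling, 21.0% and 11.9% with equal nuclear-genome totals, and 14.8% and 18.1% with GC trends removed. Whether the nuclear share lay below or above that of all genes thus depended on the scaling. Without both libraries numbered 5, 1 mitochondrial gene and 5513 of all genes were called, against 0 and 3280. With the replicate number as a block 24 nuclear members, 11 mitochondrial genes and 5769 of all genes were called, and with GC trends removed as well 23, 10 and 5364. The labels do not say that numbers pair the wells. Deviations from the group means over 12161 genes correlated at 0.29, 0.07, 0.31 and 0.71 for numbers 1, 3, 4 and 5, and untreated replicate 3 correlated best with dexamethasone replicate 1 (0.43), so the block is not used as a result. For named genes, 1030 of 1199 refits kept direction and call, 60 lost a call, 69 gained one and 40 changed sign without a call in either. The cause of these shifts was not tested. Depth is known only as an estimate.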
